A study of Mus musculus with 9 samples.

Results

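Orphan G protein-coupled receptors are members of the 7-transmembrane receptor family for which no agreed natural ligand has been settled, and the genes described here are a group of them with expression enriched in the brain: Gpr3, Gpr6, Gpr12, Gpr52, Gpr83, Gpr139 and Gpr149. Of these 7 genes, 5 had at least 1 probe set that the platform annotation assigned to a single gene, out of 18193 genes in all, and together they had 9 probe sets out of 34945. Gpr6, Gpr3 and Gpr149 were read on the probe sets 1440148_at, 1460275_at and 1456858_at, Gpr12 on 1449472_at and Gpr83 on 1439569_at. Where a gene had several probe sets, the brightest on average was the main one. Gpr52 and Gpr139 were not analysed here.

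The arrays hold striatal RNA of 9 female mice, C57Bl/6 crossed with CBA by their strain label, with 1 array per mouse. They compare 5 R6/2 mice, labelled R62_86, R62_95, R62_105, R62_107 and R62_109, with 4 wild-type mice, labelled 46, 47, 49 and 66. R6/2 mice carry a fragment of the human huntingtin gene, its first exon with an expanded CAG repeat, under the human promoter, in addition to their own intact huntingtin genes, and serve as a model of Huntington disease that does not express the full-length mutant protein. All were about 12 weeks old, with 85 days recorded for the wild-type mice and mouse R62_86 and 83 days for the other 4 R6/2 mice. Values are log2 expression, so a difference of 1 is a factor of 2.

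Gpr3, Gpr6 and Gpr12 form a subfamily of closely related receptors that raise cyclic AMP through stimulatory G proteins without an added ligand. In the striatum, Gpr6 is known as a receptor of the indirect-pathway spiny projection neurons, the neurons that also carry the dopamine D2 receptor and make enkephalin, whereas Gpr3 and Gpr12 are found in many brain regions. Gpr83 is a receptor of the limbic system and striatum for which the neuropeptide PEN, cut from the precursor proSAAS, has been proposed as a ligand. The ligand of Gpr149 is not known.

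Promoter sequences from RefSeq (GRCm38.p6) were available for 4 of the receptor genes in 5 windows, each from 250 bases before to 50 bases after an annotated start. They are shown as a description of the genes, and no link between their letters and the array differences was tested. Capitals mark TGACG, the core of the cyclic AMP response element, on either strand.
Gpr6, chr10:41072241-41072540, minus strand: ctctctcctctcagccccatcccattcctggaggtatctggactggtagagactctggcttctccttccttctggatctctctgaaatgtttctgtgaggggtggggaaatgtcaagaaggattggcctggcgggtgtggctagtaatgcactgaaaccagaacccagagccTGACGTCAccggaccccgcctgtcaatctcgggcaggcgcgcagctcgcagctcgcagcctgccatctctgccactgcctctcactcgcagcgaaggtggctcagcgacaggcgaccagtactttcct
Gpr83, chr9:14859960-14860259, plus strand: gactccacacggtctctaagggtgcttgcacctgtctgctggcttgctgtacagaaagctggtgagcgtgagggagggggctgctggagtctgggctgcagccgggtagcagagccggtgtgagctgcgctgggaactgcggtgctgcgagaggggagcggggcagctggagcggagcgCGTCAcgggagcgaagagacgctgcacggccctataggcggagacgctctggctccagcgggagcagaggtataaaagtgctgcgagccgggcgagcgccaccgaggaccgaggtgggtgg
Gpr12, chr5:146584355-146584654, minus strand: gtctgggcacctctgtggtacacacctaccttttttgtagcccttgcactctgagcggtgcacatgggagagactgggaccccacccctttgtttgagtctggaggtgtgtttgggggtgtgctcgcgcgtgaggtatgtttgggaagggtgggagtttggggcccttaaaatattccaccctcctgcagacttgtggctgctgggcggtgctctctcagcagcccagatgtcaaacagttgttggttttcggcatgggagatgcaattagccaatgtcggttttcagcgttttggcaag
Gpr12, chr5:146585190-146585489, minus strand: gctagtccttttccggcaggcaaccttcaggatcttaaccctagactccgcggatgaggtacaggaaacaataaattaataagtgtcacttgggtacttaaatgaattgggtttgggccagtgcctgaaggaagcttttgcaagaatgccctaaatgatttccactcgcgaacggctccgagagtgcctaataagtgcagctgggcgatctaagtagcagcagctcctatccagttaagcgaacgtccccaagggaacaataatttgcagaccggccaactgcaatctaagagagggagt
Gpr3, chr4:133212487-133212786, minus strand: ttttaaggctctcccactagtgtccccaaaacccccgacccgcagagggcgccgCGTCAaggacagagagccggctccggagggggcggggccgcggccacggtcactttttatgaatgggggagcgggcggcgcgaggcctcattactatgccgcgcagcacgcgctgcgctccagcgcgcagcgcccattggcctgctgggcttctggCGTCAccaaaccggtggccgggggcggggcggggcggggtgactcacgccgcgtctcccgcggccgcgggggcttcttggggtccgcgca
The full element TGACGTCA, which reads TGACG on both strands, occurred in the Gpr6 window, beginning 78 bases before the start, and in 1.79% of 32851 promoter windows of the same length. The Gpr83 window held 1 core, beginning 71 bases before the start, and the Gpr3 window held 2, at 196 and 40 bases before it. Neither Gpr12 window held these letters, and 20.8% of all windows did. The GC box GGGCGG was found 5 times in the Gpr3 window and 1 time in the downstream Gpr12 window, against 35.7% of all windows with at least 1. TATAAA was found only in the Gpr83 window of the 5 (13.6% of all windows), beginning 1 base before the start and running past it. The Egr motif GCGTGGGCG was in none of them (0.612% of all windows), and both were searched on either strand. These are matches of letters and describe the windows, not binding.

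Each receptor's level was compared between the genotypes. In R6/2 striatum, 4 of the 5 receptors were called lower and none higher. The call of Gpr3, read on a dim probe set, was marginal. It ended under 13 alternatives and held under 7. Gpr6 fell to 31.5% and Gpr83 to 33.1% of the wild-type level, Gpr12 to 61.6% and Gpr3 to 74.1%. Of all genes, 7.57% were called lower and 9.28% higher in the same fit (limma, Benjamini-Hochberg adjusted p under 0.05). Genotypes did not overlap for 3 of the 5 receptors, each lower in R6/2 mice, against 8.09% of all genes. By probe set, 6 of the 9 were called lower, against 5.58% of all probe sets. Because the receptors were picked with earlier results of these arrays known, their share of calls is given as a description. Striatal tissue was used whole, so fewer cells of a type and less RNA per cell cannot be told apart.

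**Figure D1:**
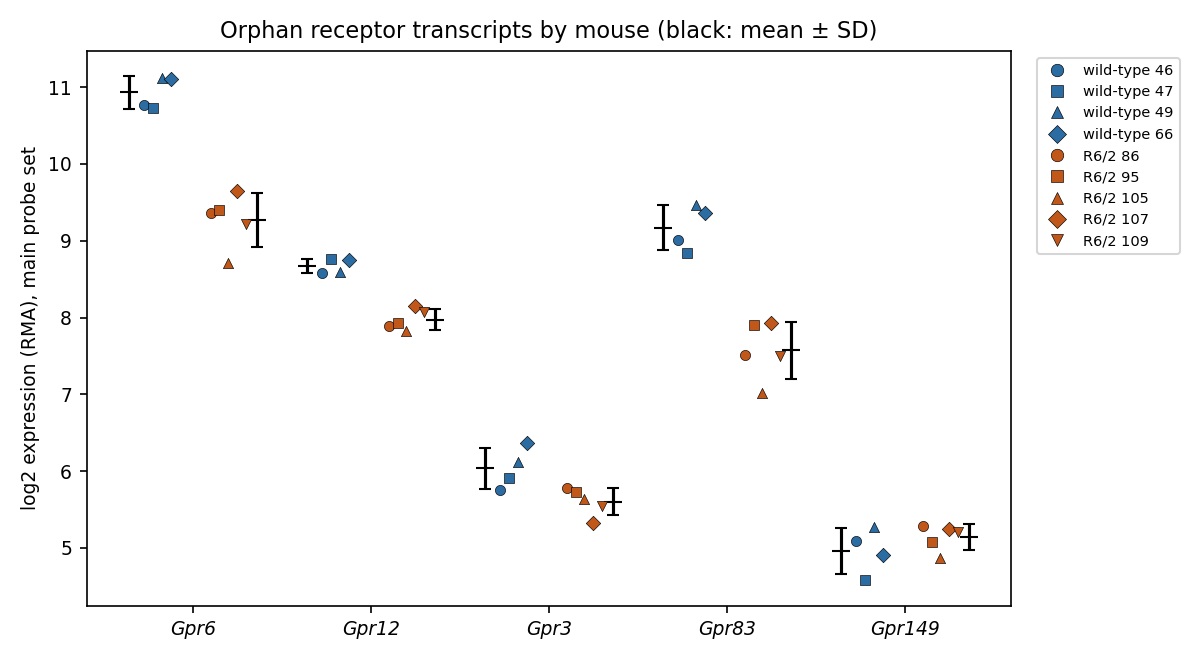
Log2 expression (RMA) of the main probe set of each receptor gene (x axis) in each mouse. Blue symbols are the 4 wild-type and orange symbols the 5 R6/2 mice, 1 symbol shape per mouse within a genotype, and black bars give the mean ± SD. The genotypes are separate for Gpr6, Gpr12 and Gpr83 and overlap for Gpr149 and, narrowly, for Gpr3.

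Gpr6 had the lowest difference of the group. In wild-type mice 46, 47, 49 and 66 it was 10.76, 10.73, 11.13 and 11.11. In mice R62_86, R62_95, R62_105, R62_107 and R62_109 it was 9.37, 9.40, 8.71, 9.65 and 9.21. The lowest wild-type value thus lay 1.08 above the highest R6/2 value, and mouse R62_105 was the lowest of all. The means were 10.93 ± 0.21 (SD, n = 4) and 9.27 ± 0.35 (SD, n = 5), a log2 difference of -1.67 ± 0.17 (SE, limma adjusted p = 0.000253). This was the 27th lowest difference of all 18193 genes, and the rank is a description. Mouse R62_86, of the same recorded age as the wild-type mice, lay at -1.57 relative to their mean.

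Gpr83 followed closely. The 4 wild-type mice, in the same order of animals, had 9.01, 8.84, 9.46 and 9.36. Values in the 5 R6/2 mice were 7.51, 7.90, 7.02, 7.93 and 7.50. As for Gpr6, wild-type mice 49 and 66 were above 46 and 47, mouse R62_105 was lowest and R62_107 highest, and the genotypes were 0.91 apart at their nearest. The log2 difference was -1.59 ± 0.19 (SE, limma adjusted p = 0.000491), from 9.17 ± 0.29 (SD, n = 4) to 7.57 ± 0.37 (SD, n = 5). Its other probe set, 1423415_at, gave -1.25 ± 0.16 (SE, limma adjusted p = 0.00121 over all probe sets), with 8.65 to 9.07 in wild-type and 7.10 to 7.88 in R6/2 mice, so that both probe sets separated the genotypes.

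Gpr12, a relative of Gpr6, showed a smaller fall with little spread. Wild-type mice had 8.58, 8.76, 8.60 and 8.75. In the R6/2 mice it was 7.89, 7.93, 7.82, 8.15 and 8.08, and the genotypes did not overlap. The log2 difference was -0.70 ± 0.08 (SE, limma adjusted p = 0.000441), with means of 8.67 ± 0.09 (SD, n = 4) and 7.97 ± 0.13 (SD, n = 5). All 3 probe sets of Gpr12 were lower, by different amounts. For 1457702_at the difference was -0.98 ± 0.13 (limma adjusted p = 0.00152 over all probe sets), with 6.84 to 7.42 in wild-type and 5.85 to 6.35 in R6/2 mice. For 1457729_at it was -0.42 ± 0.09 (limma adjusted p = 0.0137 over all probe sets), with 7.14 to 7.46 and 6.74 to 7.07. The 95% intervals of these 2 probe sets, -1.27 to -0.70 and -0.62 to -0.22, did not meet, although the difference between them was not tested. Which transcript forms each probe set reads is not given in the sources used here.

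**Figure D2:**
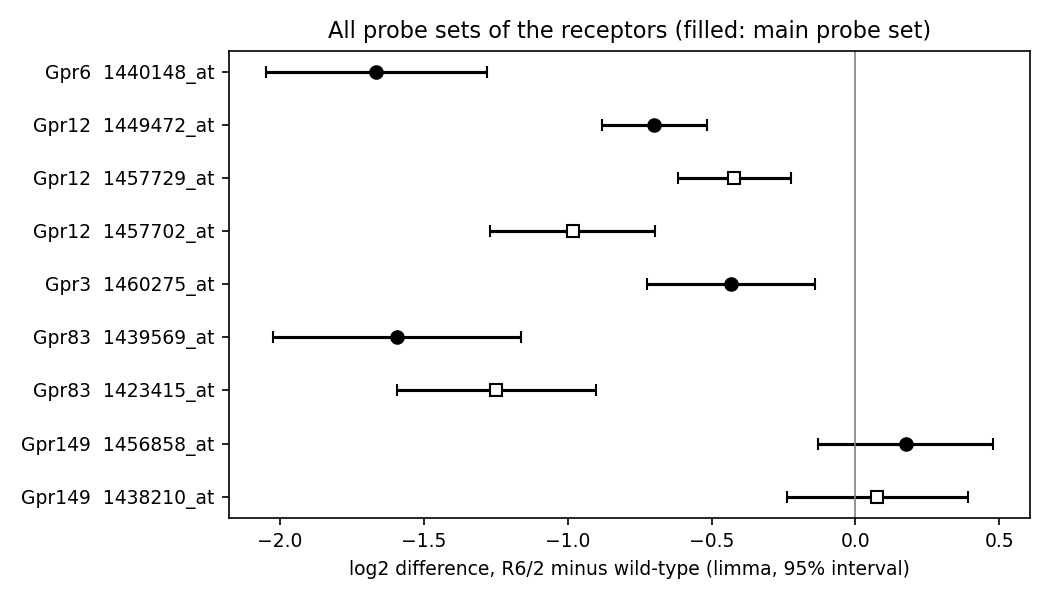
Log2 difference (R6/2 minus wild-type, x axis) of each of the 9 probe sets with its 95% interval from limma. Filled circles are main probe sets and open squares the others. The 7 probe sets of Gpr6, Gpr12, Gpr3 and Gpr83 lie below 0, and both probe sets of Gpr149 have intervals that include 0.

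Gpr3, the third of the subfamily, was nearer the dim end of the arrays and its call was marginal. It was 5.75, 5.91, 6.12 and 6.36 in the wild-type mice. The R6/2 mice had 5.79, 5.73, 5.64, 5.32 and 5.55, so that mouse R62_86 lay above wild-type mouse 46. All 5 R6/2 values were below the wild-type mean. The log2 difference was -0.43 ± 0.13 (SE, limma adjusted p = 0.0419), with means of 6.04 ± 0.26 (SD, n = 4) and 5.60 ± 0.18 (SD, n = 5). The call ended without wild-type mouse 47, 49 or 66 (adjusted p 0.0611, 0.0881 and 0.106) and without mouse R62_105, R62_107 or R62_109 (0.0735, 0.0813 and 0.0876). It ended also when p was adjusted over all probe sets (0.0584) and with quantile normalization (0.0519).

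Gpr149 was the dimmest of the group and did not pass the test. Wild-type mice had 5.10, 4.58, 5.27 and 4.91, and R6/2 mice 5.28, 5.08, 4.88, 5.25 and 5.21. The genotypes overlapped, with wild-type mouse 47 lowest of all. The log2 difference was 0.18 ± 0.13 (SE, limma adjusted p = 0.412), with a 95% interval of -0.12 to 0.47. Whether this dim probe set read above background was not tested, so the interval does not exclude a fall of the Gpr149 transcript. Its other probe set, 1438210_at, gave 0.08 ± 0.14 and lay between 4.09 and 4.71 in wild-type mice. In each array the main probe set of Gpr149 lay between percentiles 27.7 and 37.0 of all genes, that of Gpr3 between 37.1 and 48.1, and that of Gpr6 between 80.7 and 97.7.

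The falls were set against those of genes that mark the spiny projection neurons. A score of 25 shared spiny neuron markers, none of them a receptor described here, was 10.99 to 11.28 in wild-type and 9.28 to 9.97 in R6/2 mice. Markers of this striatal cell type were thus bright on all 9 arrays. All 25 markers were called lower, with log2 differences from -3.12 to -0.58, against 7.57% of all genes. Receptors and markers were chosen with earlier results of these data known, so this count is a description. The permutation tests of each receptor against the score, here and below, carry the same limit. Within each array, Gpr6 minus this score had a wild-type mean of -0.15 ± 0.19 (SD, n = 4) and an R6/2 mean of -0.48 ± 0.10 (SD, n = 5). The R6/2 minus wild-type difference was -0.33 (exact two-sided permutation p = 0.0159, adjusted p = 0.0198 over 5 receptors), with all 5 R6/2 mice narrowly below the 4 wild-type mice. Averaging all probe sets of a gene made it -0.56 (exact permutation test, adjusted p = 0.0198). Gpr6 has 1 probe set, so this change came from the score. The median difference of its markers went from -1.27 to -1.07. For Gpr83, with main probe sets, the difference from the score was -0.26 and did not pass (exact permutation p = 0.0873, adjusted p = 0.0873), with genotypes that overlapped. It passed without wild-type mouse 47 (-0.35, exact permutation test, adjusted p = 0.0179).

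Gpr12 fell less than the mean of the markers, although its fall lay within the range of the single markers. The array values of the dim Gpr3 probe set also fell less than that mean. Relative to the score, Gpr12 was higher in R6/2 mice by 0.64 (exact permutation p = 0.00794, adjusted p = 0.0198) and Gpr3 by 0.90 (exact permutation p = 0.0159, adjusted p = 0.0198). In both comparisons all 5 R6/2 mice lay above all 4 wild-type mice. Whether the dim probe sets of Gpr3 and Gpr149 read above background was not tested. A smaller fall of the Gpr3 transcript therefore cannot be read from its array values, and nothing is read from Gpr149 against the score. When all probe sets of a gene were averaged, the difference was 0.40 for Gpr12 and 0.67 for Gpr3 (exact permutation test, adjusted p = 0.0265 and 0.0298). The smallest p that 9 mice allow is 0.00794.

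**Figure D3:**
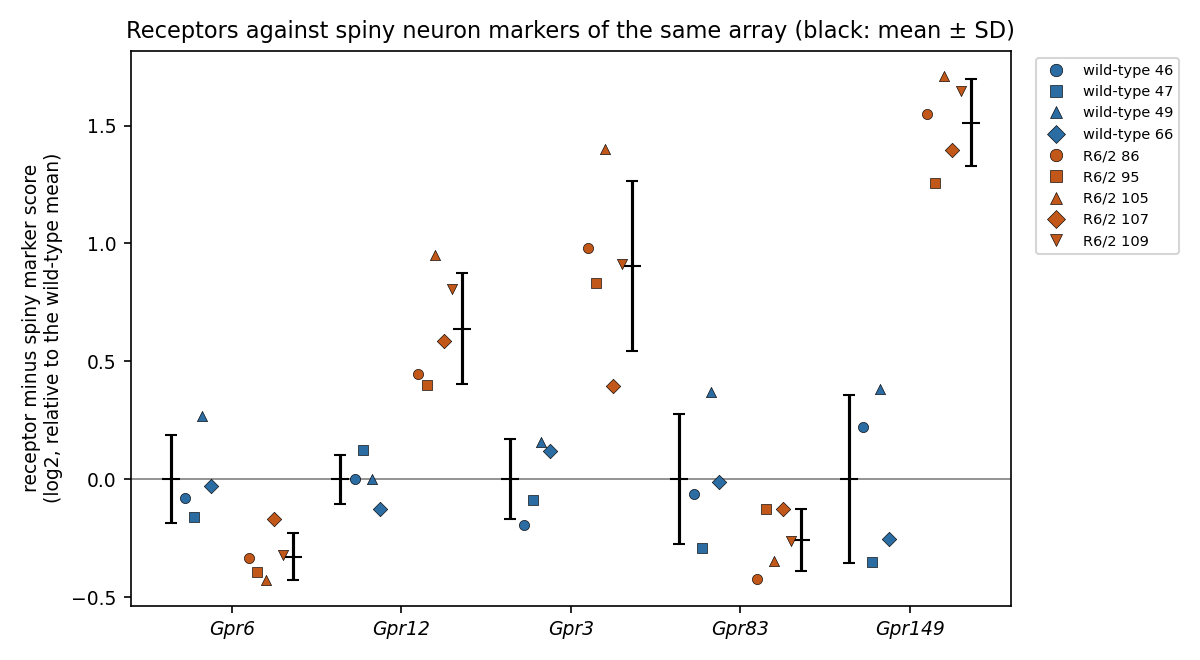
Each receptor's log2 value minus the mean log2 value of 25 spiny neuron markers of the same array (y axis), set to 0 at the wild-type mean. Symbols are as in the plot of receptor values by mouse, and black bars give the mean ± SD. R6/2 mice lie below 0 for Gpr6, on average -0.33, and above 0 for Gpr12 and Gpr3. They also lie above 0 for the dim Gpr149, whose own level did not pass the test, so that its points mirror the fall of the score.

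Within the Gpr3, Gpr6 and Gpr12 subfamily the fall in array values was unequal. Gpr6 minus Gpr12 dropped by 0.97 in R6/2 mice, from 2.26 ± 0.24 (SD, n = 4) to 1.29 ± 0.28 (SD, n = 5; exact permutation p = 0.00794, adjusted p = 0.0238 over 3 pairs). The same difference for Gpr6 and Gpr3 dropped by 1.23 (exact permutation p = 0.0159, adjusted p = 0.0238). For both pairs all 5 R6/2 mice lay below all 4 wild-type mice. Gpr3 minus Gpr12 gave 0.27 (exact permutation p = 0.214, adjusted p = 0.214), with overlapping genotypes, which does not show that these 2 genes changed alike. Whether the dim Gpr3 probe set read above background was not tested. The 2 pairs with Gpr3 therefore compare array values, and an unequal fall of the transcripts cannot be read from them.

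Among the receptors, Gpr6 and Gpr83 had the most alike profiles. The measure was the root mean square difference between 2 genes' log2 values over the 9 mice after each gene's mean was subtracted, which holds the genotype difference and the spread within a genotype together. Of all other genes, by main probe sets, Gpr83 was nearest to Gpr6 and Gpr6 nearest to Gpr83, at 0.108. The ranking was not repeated with the other probe set of Gpr83. Close behind for Gpr6 were Gabrd, a GABA-A receptor subunit (0.111; log2 difference -1.63 ± 0.15), and Cd4, known as a T cell coreceptor (0.117; -1.50 ± 0.13). Gpr83 was followed by Gabrd (0.13) and Ppp1r1b (0.15, log2 difference -1.70 ± 0.22), the gene of the dopamine-responsive signalling protein DARPP-32. Ppp1r1b is also one of the spiny markers. Gpr12 was nearest to Map6d1 (0.0552; -0.77 ± 0.10), Tiam2, an activator of Rac GTPases (0.0558; -0.69 ± 0.07), and Kcns2, a modulatory potassium channel subunit (0.0758; -0.79 ± 0.08). The genes nearest to Gpr3 were Ptges3l (0.11; -0.57 ± 0.10), Rmnd5b (0.12; -0.37 ± 0.09) and Mxd1, a repressor that pairs with Max (0.12; -0.53 ± 0.09). These nearest genes were picked for closeness to a receptor called lower, on a measure that holds the genotype difference. Their own falls follow from that choice, and their calls are given as a description. Without wild-type mouse 66 Rmnd5b did not pass (limma adjusted p = 0.0511). Averaging all probe sets of a gene gave Gabrd -0.88, Map6d1 -0.42, Tiam2 -0.40, Ptges3l -0.35 and Mxd1 -0.26, each still past the threshold. With the cortex score as a covariate Map6d1, Ptges3l, Rmnd5b and Mxd1 did not pass (adjusted p 0.0529 to 0.342). That covariate left 330 of all genes called, against 3066 in the main fit.

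Of 3 measured markers of the indirect pathway, whose neurons carry Gpr6, 2 were lower in the same mice. The log2 difference was -1.88 ± 0.16 for Penk, the enkephalin precursor, and -1.58 ± 0.24 for Drd2, while the glutamate receptor gene Grik3 gave 0.12 ± 0.17 and did not pass (-0.088 without wild-type mouse 49). Of 8 direct-pathway markers 5 fell and 3 did not pass, with differences from -1.45 (Drd1) to 0.12 and a median of -0.46. Among other cell types, cortex projection neuron markers moved the other way: 4 of 10 rose and 1 fell, and their score was 6.97, 6.71, 6.33 and 6.06 in wild-type mice 46, 47, 49 and 66 and 6.76 to 7.57 in R6/2 mice. Mouse R62_105, lowest for Gpr6, Gpr83 and Gpr12, had the highest cortex score and the lowest spiny score (9.28). With the cortex score as a covariate Gpr6 was -1.18 ± 0.16 (limma adjusted p = 0.0099), Gpr83 -1.04 ± 0.17 (0.020), Gpr12 -0.58 ± 0.12 (0.0369) and Gpr3 -0.29 ± 0.19 (0.504). The choroid plexus score spanned 5.89 to 9.07 in wild-type and 5.40 to 7.48 in R6/2 mice, with 0 of 8 markers called. Without the 3 arrays in which it was highest (wild-type 47 and 66, R62_107), Gpr6, Gpr83 and Gpr12 passed (-1.77, -1.75 and -0.66) and Gpr3 did not (-0.26, adjusted p 0.26). Of markers of the other cell types, 6 of 10 astrocyte, 4 of 10 microglia, 2 of 9 oligodendrocyte, 5 of 6 cholinergic and 2 of 11 GABA interneuron genes fell, and 1 of 11 habenula, thalamus and midbrain genes rose. Of the remaining lists, 1 of 6 septum and islands of Calleja genes rose and 1 fell, and 0 of 5 oligodendrocyte precursor, 0 of 7 endothelial and mural and 0 of 2 blood genes passed. Of all genes, 7.57% were called lower and 9.28% higher, and no cell type list was tested against these shares. The microglia score was 7.76 to 8.30 in wild-type and 7.28 to 7.73 in R6/2 mice, and the astrocyte score 9.95 to 10.17 against 9.67 to 9.89. The part of these cell types in the receptor values was not tested beyond the covariate and the arrays left out.

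The control probe sets for the 3′ and 5′ ends of Actb, a measure of RNA integrity, differed (3′ minus 5′) by 0.45 to 0.79 in wild-type and 0.47 to 1.24 in R6/2 mice, where mouse R62_95 was highest. Without mouse R62_95 the differences were -1.70 for Gpr6, -1.67 for Gpr83, -0.69 for Gpr12 and -0.46 for Gpr3, each past the threshold. Centring the arrays on 6 housekeeping genes moved the median difference of all genes from -0.017 to -0.15 and the split of calls from 1688 higher and 1378 lower to 495 higher and 2510 lower. The 4 receptors stayed lower there, at -1.80, -1.73, -0.83 and -0.57 in the order Gpr6, Gpr83, Gpr12 and Gpr3. With age in days as a covariate 0 of the 5 receptors passed, and 30 of all genes did. Mouse R62_86 is the only R6/2 mouse of the wild-type age, so that fit rests on 1 R6/2 array.

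Of 43 other orphan receptors measured, 5 were called lower and 2 higher, against 7.57% and 9.28% of all genes. Their median log2 difference was -0.073, against -0.017 for all genes. Gpr153 fell by 0.80 ± 0.14 and Gpr26 by 0.47 ± 0.10 (-0.28 when its probe sets were averaged), while Gpr161, a receptor of the primary cilium, rose by 0.69 ± 0.12 (0.30 when its probe sets were averaged). With housekeeping centring 7 were lower and 1 higher. The remaining calls are named because their values were seen: Gpr34, a microglial receptor, fell by 0.73 ± 0.19, Gpr27 by 0.41 ± 0.11 and Gpr37l1, an astrocyte receptor, by 0.30 ± 0.07, and Gpr162 rose by 0.26 ± 0.07. With the cortex score as a covariate Gpr26, Gpr27, Gpr34, Gpr37l1 and Gpr162 did not pass (adjusted p 0.0594 to 0.402), and without the 3 choroid-rich arrays Gpr153, Gpr27, Gpr37l1 and Gpr162 did not (0.0654 to 0.21). Of all genes, 330 passed with that covariate and 882 without those arrays, against 3066 in the main fit. Gpr162 lost its call with housekeeping centring (0.12) and without wild-type 47 or 66 or any R6/2 mouse but R62_107 (adjusted p 0.0515 to 0.0911). Gpr27 lost it without wild-type 46, 47 or 66 or R62_105 (0.0584 to 0.0773), and Gpr34 without R62_95 or R62_109 (0.0505 and 0.0574).

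Receptors related to the subfamily by sequence, those for sphingosine 1-phosphate, lysophosphatidic acid, cannabinoids and melanocortins, numbered 14. The cannabinoid receptor gene Cnr1, which is also one of the spiny markers, fell by 1.33 ± 0.13 (limma adjusted p = 0.000213). The sphingosine 1-phosphate receptor gene S1pr3 rose by 0.75 ± 0.08 (limma adjusted p = 0.000304). The wild-type mean of S1pr3 was 6.46 ± 0.14 (SD, n = 4) and its R6/2 mean 7.21 ± 0.09 (SD, n = 5), and averaging its probe sets gave a difference of 0.45. The other 12 did not pass, with S1pr4 at -0.16 ± 0.07, and the list median was -0.059. Of all genes, 7.57% were called lower and 9.28% higher.

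Among 5 measured genes for proposed ligands and their processing, 2 were called higher, against 9.28% of all genes. Pcsk1n, which encodes proSAAS and so the proposed Gpr83 ligand PEN, rose by 0.31 ± 0.09 (limma adjusted p = 0.0383). Pcsk1, a convertase that cuts neuropeptide precursors, rose by 0.55 ± 0.16 (limma adjusted p = 0.0402). Both had overlapping genotypes, and both lost their calls with housekeeping centring (0.17 and 0.41; adjusted p 0.305 and 0.0763) and with p adjusted over all probe sets (0.0526 and 0.0566). Leaving out any mouse but wild-type 49 or R62_107 ended the call of Pcsk1n, and any but wild-type 49 or R62_95 that of Pcsk1. Pomc, whose peptides have been proposed for Gpr139, gave -0.19 ± 0.09 (limma adjusted p = 0.160), and -0.33 with housekeeping centring, where it passed (0.0393).

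**Figure D4:**
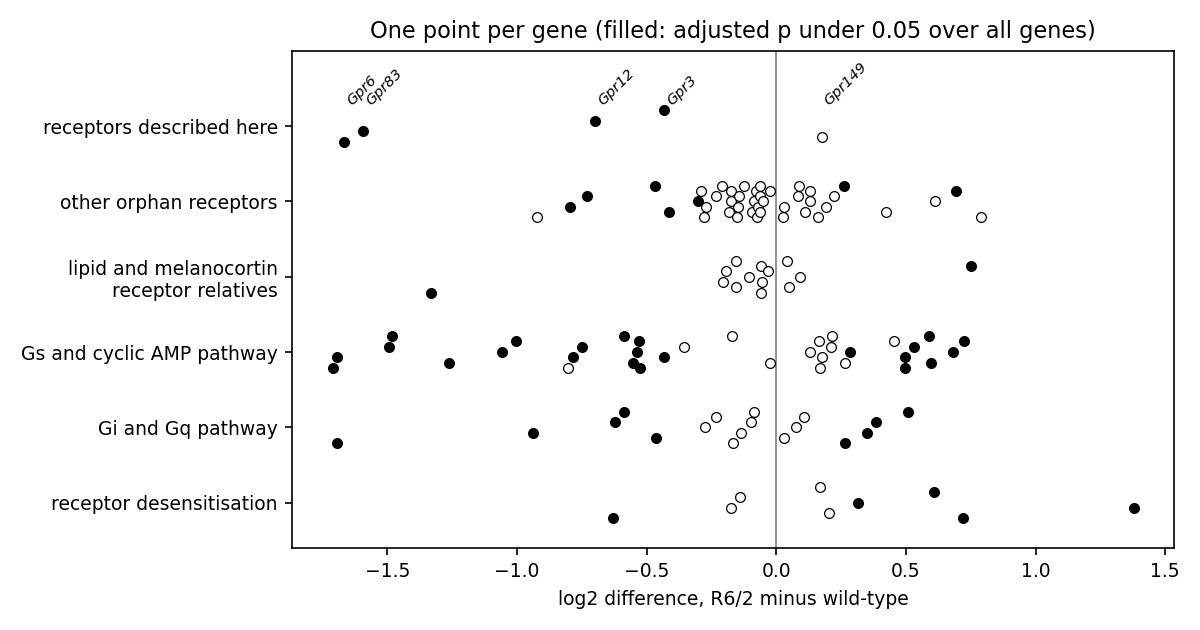
Log2 difference (R6/2 minus wild-type, x axis) of each receptor described here and of each gene of 5 lists, 1 point per gene, with a small vertical offset that carries no value. Filled points passed the limma test over all genes. Most of the 43 other orphan receptors lie near 0, whereas 23 of 35 genes of the stimulatory G protein and cyclic AMP list are filled, on both sides of 0. The lists differ in brightness: the brighter 50% of genes hold 16 of those 43 receptors and 32 of those 35 genes. Of all genes, 7.57% were called lower and 9.28% higher.

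The pathway through which Gpr3, Gpr6 and Gpr12 signal moved in both directions. Of 35 genes of the stimulatory G protein and cyclic AMP list, 15 were called lower and 8 higher, with a median of -0.17. The shares of all genes were 7.57% and 9.28%. Pde10a, a phosphodiesterase of spiny neurons and itself one of the spiny markers, had -1.48 ± 0.17. Creb1, a cyclic AMP-responsive transcription factor, rose by 0.50 ± 0.06 and the phosphodiesterase gene Pde4d by 0.59 ± 0.07 (1.01 when its probe sets were averaged). Other members, chosen after their values were seen, moved both ways. Among those lower were 3 that the spiny marker list also holds: Adcy5, the main striatal adenylyl cyclase, at -1.49 ± 0.20 (-0.54 when its probe sets were averaged), the G protein gene Gng7 at -1.06 ± 0.20 and Gnal, the olfactory and striatal stimulatory subunit, at -0.59 ± 0.12. Gnas, the subunit used in most tissues, was higher by 0.60 ± 0.10. The adenylyl cyclase genes Adcy8 and Adcy6 were higher by 0.72 ± 0.15 and 0.50 ± 0.12, and the protein kinase A subunit genes Prkar2a, Prkar1b and Prkacb by 0.68 ± 0.09, 0.53 ± 0.11 and 0.28 ± 0.06. When probe sets were averaged Gnas (0.19, limma adjusted p = 0.0537), Creb1 (0.16, limma adjusted p = 0.153) and Prkacb (0.072, limma adjusted p = 0.814) did not pass, and Prkar2a was 0.45. With housekeeping centring neither Adcy6 (0.36) nor Prkacb (0.15) passed. With the cortex score as a covariate Gnal (-0.28), Gng7 (-0.48), Adcy5 (-1.08), Gnas (0.32), Adcy8 (0.27), Adcy6 (0.31), Prkar1b (0.26) and Prkacb (0.25) did not pass (adjusted p 0.0589 to 0.381). Of all genes, 330 passed with that covariate, against 3066 in the main fit.

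Of 18 genes for inhibitory and Gq signalling, 5 were called lower and 4 higher (median -0.12), against 7.57% and 9.28% of all genes. Rgs4, a brake on these G proteins, fell by 1.69 ± 0.16, Prkcb, a protein kinase C, by 0.62 ± 0.07 and the phospholipase gene Plcb1 by 0.59 ± 0.08, while the Gq subunit gene Gnaq rose by 0.39 ± 0.07. With housekeeping centring 0 were higher and 6 lower, and Gnaq did not pass (0.25, adjusted p 0.0698). With the cortex score as a covariate neither Gnaq nor Plcb1 passed (adjusted p 0.135 and 0.068), in a fit that called 330 of all genes, against 3066 in the main fit. Among 9 genes of receptor desensitisation and sorting, 4 rose and 1 fell (median 0.20), against 9.28% and 7.57% of all genes. Gprasp2 and Gprasp1, whose products bind G protein-coupled receptors after internalisation, rose by 1.38 ± 0.08 and 0.61 ± 0.07 (Gprasp1 0.35 when its probe sets were averaged), and the receptor kinase genes Grk3 and Grk6, chosen after their values were seen, by 0.72 ± 0.15 and 0.32 ± 0.06. The kinase gene Grk5 fell by 0.63 ± 0.12. With the cortex score as a covariate none of Grk3 (0.31), Grk6 (0.31) and Grk5 (-0.50) passed (adjusted p 0.166 to 0.333). With housekeeping centring 3 rose and 1 fell, and Grk6 did not pass (0.18).

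Huntingtin itself and Rab39b, a GTPase linked to the action of Gpr52 on huntingtin, did not pass. Htt had a wild-type mean of 7.48 ± 0.34 (SD, n = 4) and an R6/2 mean of 7.96 ± 0.22 (SD, n = 5), without overlap (0.48 ± 0.16, limma adjusted p = 0.0642), and passed under 1 alternative, when the brighter 50% of genes alone were tested (0.0423). It was 0.31 without wild-type mouse 49 (adjusted p 0.107) and 0.28 when its probe sets were averaged (adjusted p 0.133). Rab39b gave -0.082 ± 0.11 (limma adjusted p = 0.659).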

How the data were processed

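Each array held 45101 probe sets as log2 values that the authors made with RMA (affy), as the submitters' processing notes list. RMA corrects background, equalises the distributions of the arrays and condenses probes to probe sets, so a shift common to all genes of an array is lost. No version is stated in the labels, nor which arrays were processed together. Array medians lay between 5.37 and 5.45, arrays correlated at 0.979 to 0.995, and each mouse was 1 replicate. Their number limits the precision.

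Of the probe sets, 34945 named 1 gene and 932 several, 9211 were not listed and stay unnamed, and 64 manufacturer controls were left out. By gene ID 34741 matched the RefSeq table, and 204 kept the annotation's symbol. Dim probe sets were kept, and all 5 receptors were tested. Genotypes were compared with limma 3.58.1 (lmFit, eBayes) in R 4.3.3 over 18193 genes, two-sided, and again over all probe sets. The script was tested on simulated data. Exact permutation tests enumerated all splits of the mice, with p adjusted over the 5 measured receptors rather than the 7 listed. In all, 23 lists held 288 entries, of which 263 were measured. The named genes were all receptors, the 3 list members of smallest p, the member of smallest p that moved against the list's median, and the 3 genes of most alike profile. Receptors and lists were chosen with earlier results of these data known. Alternatives were averaged probe sets, every probe set, quantile normalization, the brighter 50% of genes, median or housekeeping centring, other variance models, covariates and arrays left out. Figures were drawn with matplotlib 3.10.9.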

Additional observations from a re-analysis of the deposited data

How the results depend on the processing

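Gpr6, Gpr12 and Gpr83 kept their direction and call under all alternatives except age in days as a covariate (-1.57, -0.78 and -1.65; limma adjusted p 0.0710, 0.0603 and 0.0840). Over the single mice left out they ranged from -1.76 to -1.53, from -0.74 to -0.66 and from -1.70 to -1.46. Gpr3 stayed negative but lost its call over all probe sets (-0.43), with quantile normalization (-0.41), array weights (-0.40), no moderation (-0.43), age (-0.25) or the cortex score (-0.29) as a covariate and without the 3 arrays highest in choroid plexus score (-0.26). With single mice left out it ranged from -0.53 to -0.33. Gpr149 ranged from 0.05 to 0.28 with single mice left out and was -0.072 without those 3 arrays. Grik3, an indirect-pathway marker that did not pass, was -0.018 with housekeeping centring, -0.0015 with array weights and -0.088 to 0.25 with single mice left out. The brighter 50% of genes hold neither Gpr3 nor Gpr149. The count of receptors called was 0 with age as a covariate and 3 or 4 under every other alternative. All genes called numbered 3066, but 2006 without moderation, 30 with age, 330 with the cortex score as a covariate and 882 without the 3 arrays. The last 3 fits have fewer arrays or fewer degrees of freedom, and why fewer genes passed was not tested. With single mice left out, 2183 to 2984 genes were called. Gpr83 minus the spiny score ranged from -0.35 to -0.13, and its call changed only without wild-type mouse 47. No other difference within arrays changed its side of the threshold with single mice left out, averaged probe sets or, for differences from the score, the median of the markers. The covariates, quantile normalization and the set without the 3 arrays were not run for these differences. No paired analysis was possible because the animals carry numbers of their own and no number is shared between genotypes.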
